A study of Mus musculus with 2 samples.

Results

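The 36 cell-cycle genes described here comprise 20 genes of G2 phase and mitosis, 12 genes of S phase, and 4 genes that are abundant in dividing cells but are also expressed in many cells that do not divide. The rule that chose them used their names and not their values. All 36 were found among the 31053 genes of each deposited count table, and each had counts in both libraries. The cells were immune cells of the mouse retina, sorted on the leukocyte surface protein CD45 and sequenced with a droplet 3′ kit that counts unique molecular identifiers (UMIs). One library was labelled a knockout of Igfbpl1, a gene named for its likeness to binding proteins of insulin-like growth factors, and the other was labelled wildtype. Both were from the C57BL/6 strain, and both came from perfused animals. Per the design text, the animals were 8 to 10 months old, with 10 knockout mice and as many wildtype mice of matched sex, and its other arms are not analysed here. Neither the altered allele nor the number of mice per library is stated, and cells could not be assigned to mice. Igfbpl1 itself went against the labels, with 29 counts in 27 cells of the library labelled knockout and 2 counts in the library labelled wildtype. That is 3.65 (2.44 to 5.24) and 0.181 (0.022 to 0.656) counts per 1000000 UMIs (CPM), so both libraries are named here by their labels. If the labels were exchanged, every ratio between the libraries given below would turn to its inverse and every direction would reverse. With 1 library per genotype no test between genotypes was possible. All intervals below are exact 95% intervals that cover counting error only, and UMIs of the same cell are not independent of each other.

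A cell that divides copies its DNA in S phase and separates the copies in mitosis, with the G2 phase between them. The genes of S phase load and run the replication machinery or supply nucleotides, and they are under the control of E2F transcription factors. The genes of G2 and mitosis encode cyclins, kinases, centromere proteins and spindle motors. In cells that do not divide they are held down by the DREAM complex, which reaches many of their promoters through an element called CHR. In adult retina and brain, microglia persist by slow self-renewal, and few of them are in the cycle at any time.

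The promoter sequences of 6 of the genes are shown because the split between S and G2/M genes recurs in the results. Each stretch is the 160 bases just upstream of the gene's annotated start, written 5′ to 3′ on the gene's strand, from RefSeq (GRCm38.p6). Capitals mark matches on either strand to 3 motifs. The element CHR was searched with the letters TTTGAA. The box of the factor NF-Y was searched as CCAAT, and the binding site of E2F factors was searched as TTTNNCGC. Matches of different motifs may overlap. The 3 G2/M genes are Cdk1, Cdc20 and Kif11, the 2 S genes are Mcm6 and Mcm5, and Tuba1b is a broadly expressed gene. The stretches lie at chr10:69352913-69353072, chr4:118437344-118437503, chr1:128359706-128359865 and chr15:98934391-98934550 on the minus strand, and at chr19:37376222-37376381 and chr8:75109349-75109508 on the plus strand.
Cdk1: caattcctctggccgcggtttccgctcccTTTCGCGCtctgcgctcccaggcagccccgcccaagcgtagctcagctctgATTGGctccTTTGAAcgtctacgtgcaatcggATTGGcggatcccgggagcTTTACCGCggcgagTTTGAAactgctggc
Cdc20: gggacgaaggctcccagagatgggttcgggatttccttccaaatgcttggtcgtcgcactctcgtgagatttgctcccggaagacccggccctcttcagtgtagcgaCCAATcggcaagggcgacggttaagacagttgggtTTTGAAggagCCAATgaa
Kif11: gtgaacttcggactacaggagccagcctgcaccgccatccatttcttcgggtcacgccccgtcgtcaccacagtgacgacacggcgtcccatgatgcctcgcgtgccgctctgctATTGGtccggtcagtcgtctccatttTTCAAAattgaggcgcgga
Mcm6: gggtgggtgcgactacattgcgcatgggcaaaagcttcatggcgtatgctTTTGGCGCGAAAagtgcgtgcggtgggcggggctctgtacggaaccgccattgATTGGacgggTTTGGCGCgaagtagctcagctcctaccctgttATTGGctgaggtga
Mcm5: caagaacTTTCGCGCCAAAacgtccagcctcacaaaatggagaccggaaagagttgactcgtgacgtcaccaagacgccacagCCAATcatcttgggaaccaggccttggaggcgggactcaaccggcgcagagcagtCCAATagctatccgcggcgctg
Tuba1b: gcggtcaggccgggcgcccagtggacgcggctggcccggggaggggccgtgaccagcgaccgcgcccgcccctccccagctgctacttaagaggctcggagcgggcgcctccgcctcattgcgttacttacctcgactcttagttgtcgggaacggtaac

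In the whole window of 300 bases, from 250 bases before to 50 bases after the start, 30 of the 36 genes had a sequence in the table. CHR was present in 12 of 17 G2/M genes (70.6%), 1 of 10 S genes and 1 of 3 broad genes, against 20.2% of the 27025 genes of the table. All 12 of those G2/M genes also held CCAAT, and CHR with CCAAT was found in 8.97% of all genes. The E2F site was present in 6 of 10 S genes (60.0%) and in 1 of 17 G2/M genes, which was Cdk1, against 5.93% of all genes. CCAAT alone was common in both, at 15 of 17 G2/M genes and 8 of 10 S genes, against 41.1% of all genes. A match describes the letters of the window and is not a measurement of binding.

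The count tables held 1785 barcodes with 7945713 UMIs in the library labelled knockout, and 2735 barcodes with 11020717 UMIs in the library labelled wildtype. The filter on UMIs, genes and mitochondrial share kept 1761 and 2695 of these, with medians of 4286 and 3910 UMIs per cell, and the tables shared 1 barcode. A cell was gated to a class when it had at least 3 UMIs from at least 2 marker genes of that class and at least 2 times the UMIs of any other class. Microglia made up 1462 of the kept cells (83.0%) in the library labelled knockout and 2364 (87.7%) in the library labelled wildtype. The other gates were small, with 22 and 29 border macrophages, 39 and 12 monocytes, 24 and 17 lymphocytes, and 12 and 16 neutrophils. A further 55 and 74 cells were gated as retinal neurons or glia, which serve below as a class of cells that do not divide. Of the microglia markers, Gpr34 and P2ry12 were the most abundant, at 1788.2 and 1642.3 CPM in the library labelled knockout and 1757.8 and 1703.7 in the library labelled wildtype. The leading border macrophage markers were Ms4a7 and Pf4, but Cd163 and Lyve1 were at 0 in the 22 border macrophages of the library labelled knockout. Monocytes were led by Plac8 and S100a4, and Vcan was at 0 in the 12 of the library labelled wildtype.

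Cells with several G2/M genes were rare. A cell counted as G2/M-positive when at least 3 of the 20 G2/M genes had a UMI. There were 14 G2/M-positive cells among 1462 microglia of the library labelled knockout (0.958%, 0.524 to 1.60) and 28 among 2364 microglia of the library labelled wildtype (1.18%, 0.788 to 1.71). The intervals of these shares overlapped. No border macrophage, monocyte, lymphocyte, neutrophil or retinal neuron was G2/M-positive in either library. Those gates were small, and the exact intervals of 0 of 22 and 0 of 29 border macrophages reach up to 15.4% and 11.9%. For monocytes the upper limits were 9.03% and 26.5%, and for lymphocytes they were 14.2% and, rounded, 20%. For neutrophils they were 26.5% and 20.6%, and for retinal neurons and glia 6.49% and 4.86%. The other G2/M-positive cells were 2 ungated cells in the library labelled knockout, and 4 ungated and 3 mixed cells in the library labelled wildtype. That is 2.47% (0.300 to 8.64) and 3.81% (1.05 to 9.47) of the ungated cells. Of the mixed cells it is 0 of 62 in the library labelled knockout and 4.05% (0.844 to 11.4) in the library labelled wildtype. These intervals overlapped those of microglia. The ungated ones had 1 or 2 UMIs of the microglia markers each. The 3 mixed ones had 22, 6 and 0 UMIs of border macrophage markers, against 21, 5 and 6 of microglia markers. The last of them had 10 UMIs of neutrophil markers. The shares of 0 above thus hold only under the rule of 2 times the UMIs of any other class.

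Detection of 1 G2/M gene alone did not mark microglia. At least 1 of the 20 genes had a UMI in 9.17% of microglia of the library labelled knockout and in 8.38% of microglia of the library labelled wildtype. In retinal neurons and glia the shares were 10.9% and 12.2%, at median depths of 5452 and 4317.5 UMIs against 4371 and 3974 in microglia. With each cell thinned to 1000 UMIs the microglia stood at 2.70% and 3.39%, and the neurons and glia at 4.44% and 4.23%. The shares of microglia were thus at or below those of a class that does not divide, and they are read as background.

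**Figure D1:**
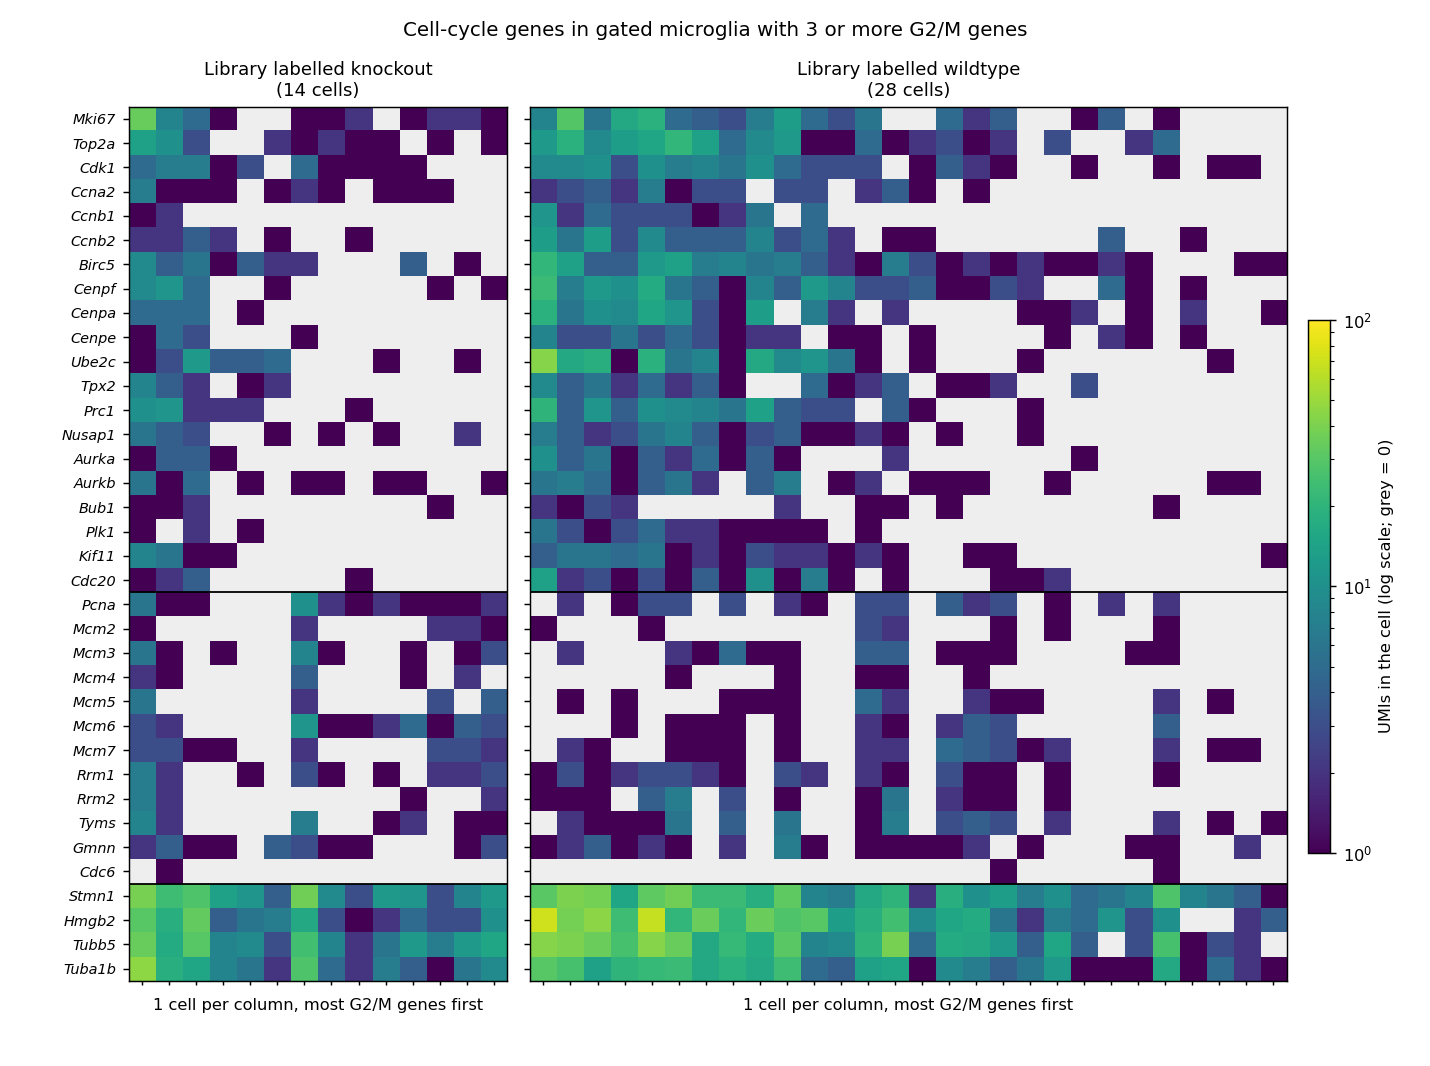
UMIs of the 36 genes (rows, in 3 blocks from top to bottom: G2/M, S and broad genes) in each G2/M-positive gated microglia (columns), with the library labelled knockout on the left and the library labelled wildtype on the right; colour is on a log scale and grey is 0. Of the 14 cells on the left 3 have 15 or more G2/M genes, and of the 28 cells on the right 12 do, while the 4 broad genes are detected in nearly every cell.

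The G2/M-positive microglia of the libraries also differed in how many of the genes they held. The library labelled knockout had 3 microglia with at least 15 of the 20 genes (0.205%, 0.0423 to 0.598), and the library labelled wildtype had 12 (0.508%, 0.263 to 0.885). The limit of 15 was chosen after the data were seen, and the intervals overlapped. The median number of G2/M genes per positive cell was 6.5 in the library labelled knockout and 11.5 in the library labelled wildtype, with a maximum of 20 in each. The median depth of the positive cells moved in the same direction, at 3733 and 7450.5 UMIs, whereas the remaining microglia had medians of 4373 and 3964.5 UMIs. With each cell thinned to 1000 UMIs, 0.555% (0.240 to 1.09) and 0.858% (0.525 to 1.32) of microglia were G2/M-positive. The part of depth in the number of genes per cell was not tested. The 3 richest cells held 53.7% of all G2/M counts of gated microglia in the library labelled knockout, and the 3 richest cells of the library labelled wildtype held 32.1%. Just inside the limit of 3 genes lay 0 cells with exactly 3 genes in the library labelled knockout and 3 in the library labelled wildtype. Just outside it lay 6 and 20 cells with exactly 2.

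Summed over gated microglia, the G2/M genes stood at 84.4 CPM (77.5 to 91.7) in the library labelled knockout and at 181 (172.6 to 189.6) in the library labelled wildtype. The ratio, knockout over wildtype, was 0.466 (0.423 to 0.513). Without the G2/M-positive cells the levels were 23.7 and 21.8 CPM, and the ratio was 1.09 (0.875 to 1.34). The 14 and 28 cells left out were chosen by the same 20 genes and held 72.3% and 88.2% of the G2/M counts, so the value without them is a description. The counting interval does not cover the spread between cells. With every cell weighted equally the levels were 72.6 and 101.2 CPM, a log2 ratio of -0.48. The log2 ratio was -0.65 with cells thinned to 1000 UMIs.

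Mki67, the antigen behind the Ki-67 proliferation stain, had 64 counts in 16 microglia of the library labelled knockout and 147 counts in 25 microglia of the library labelled wildtype. Its levels were 9.76 and 15 CPM, a ratio of 0.649 (0.476 to 0.877), and 34 of its 64 counts came from 1 cell. Top2a, the topoisomerase that untangles sister DNA, had 41 counts in 12 cells and 161 counts in 25 cells, at 6.26 and 16.5 CPM. Its ratio was 0.380 (0.263 to 0.538), so it stood lower against wildtype than Mki67 did, though the intervals overlapped.

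The cyclin B genes were among the lowest of the list. Ccnb1, a cyclin that activates Cdk1 at entry into mitosis, had 7 counts in 6 cells of the library labelled knockout and 44 counts in 13 cells of the library labelled wildtype. Its ratio was 0.237 (0.0902 to 0.531). Ccnb2, the second mitotic B cyclin, had 14 counts in 8 cells and 86 counts in 21 cells, a ratio of 0.243 (0.127 to 0.430). The kinase Cdk1 had 48 counts in 25 cells and 141 counts in 62 cells, a ratio of 0.508 (0.358 to 0.709). Ccna2, a cyclin used in both S phase and G2, had 21 counts in 13 cells and 40 counts in 15 cells. Its ratio was 0.783 (0.439 to 1.36), the highest of the 20, and its interval included 1. Within the positive cells only, Ccna2 was at 190.7 and 203.3 CPM and Ccnb1 at 33.6 and 213.7.

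Among the centromere and checkpoint genes, Cenpf, a kinetochore protein of G2 and mitosis, had 62 counts in 31 cells of the library labelled knockout and 168 counts in 49 cells of the library labelled wildtype. Cenpa, the histone variant that marks centromeres, had 53 counts in 31 cells and 158 counts in 64 cells. Cenpe, a kinetochore motor, had 16 counts in 9 cells and 55 counts in 26 cells. The ratios were 0.550 (0.404 to 0.741) for Cenpf, 0.500 (0.359 to 0.687) for Cenpa and 0.434 (0.232 to 0.768) for Cenpe. Bub1, a kinase of the spindle checkpoint, was too sparse to place, with 7 and 14 counts and a ratio of 0.746 (0.255 to 1.97).

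The genes of the chromosomal passenger complex and the spindle lay in the same range. Birc5, the survivin subunit of the passenger complex, had 38 counts in 14 cells of the library labelled knockout and 134 counts in 32 cells of the library labelled wildtype, a ratio of 0.423 (0.287 to 0.610). Aurkb, its kinase, had 22 and 55 counts and a ratio of 0.597 (0.346 to 0.994). Aurka, the centrosome kinase, had 15 and 46 counts and a ratio of 0.486 (0.252 to 0.887). Its activator Tpx2 had 19 and 56 counts and a ratio of 0.506 (0.284 to 0.865). All of these stood lower in the library labelled knockout. Prc1, which bundles the microtubules of the central spindle, had 28 counts in 6 cells and 105 counts in 18 cells, a ratio of 0.398 (0.252 to 0.608). Kif11, the motor that separates the spindle poles, had 16 counts in 4 cells and 51 counts in 22 cells, a ratio of 0.468 (0.249 to 0.834). Nusap1, a spindle-binding protein, had 19 and 49 counts and a ratio of 0.578 (0.321 to 1.00). Plk1, the kinase that drives several steps of mitosis, had the lowest ratio of the list, 0.213 (0.0543 to 0.609), on 4 counts in 3 cells and 28 counts in 13 cells. At exit from mitosis, Ube2c, an enzyme that marks cyclins for breakdown, had 39 counts in 16 cells and 167 counts in 25 cells, a ratio of 0.348 (0.239 to 0.496). Cdc20, an activator of the same pathway, had 20 counts in 16 cells and 64 counts in 26 cells, a ratio of 0.466 (0.267 to 0.780).

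All 20 G2/M genes had a ratio below 1, from 0.213 to 0.783, and 17 of the 20 counting intervals lay below 1. The exceptions were Ccna2, Bub1 and Nusap1. These genes share the same few cells, so 20 ratios on the same side are not 20 separate observations. The call set for single genes was a ratio of at least 1.5-fold either way at 20 CPM or more in 1 library. It could be applied to 6 of the 36 genes, and 0 of the 6 were called higher and 0 lower, against 0.656% higher and 0.720% lower of the 6250 genes at that level. The 6 were Pcna and Mcm3 and the 4 broad genes, and no G2/M gene reached that level. With the minimum at 10 CPM, 8 G2/M genes could be called and all 8 were at least 1.5-fold lower, against 1.52% lower and 1.2% higher of 8279 genes. These 8 reached 10 CPM only in the library labelled wildtype, and the highest of the list in the library labelled knockout was Mki67 at 9.76 CPM. The minimum thus let in genes through the library where they were higher, and nothing is read from their number. With the minimum at 50 CPM, 0 members were called, against 0.62% higher and 0.434% lower of 3226 genes. With at least 20 counts over both libraries in place of the minimum, 18 of 20 were lower and 0 higher, against 5.06% lower and 3.57% higher of 11476 genes. That last rule was added after the data were seen. The median log2 ratio was -1.07 over the 20 G2/M genes and -0.03 over the 6250 genes. The 6250 genes were at 20 CPM or more, which no G2/M gene reached, so these medians are at unlike levels. No median was taken over genes as sparse as the G2/M genes.

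**Figure D2:**
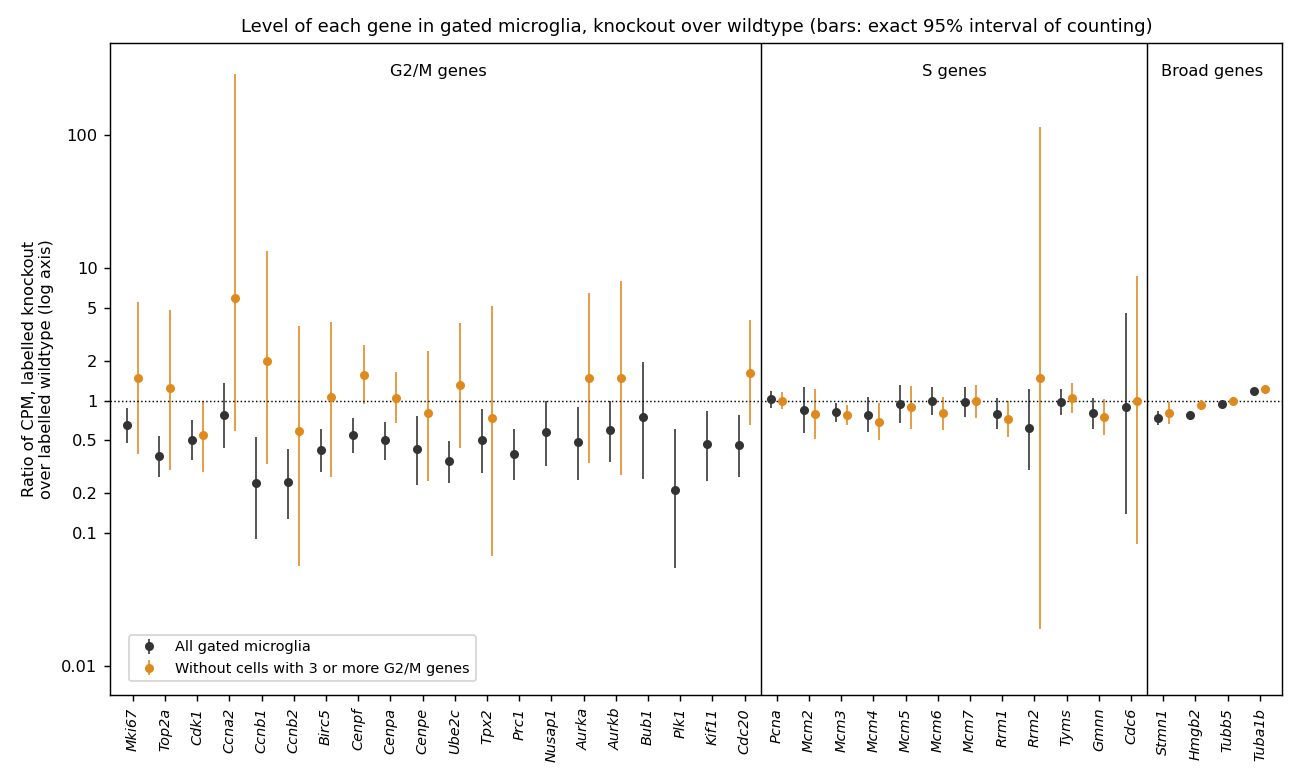
Ratio of each gene's CPM in gated microglia, library labelled knockout over library labelled wildtype, on a log axis, with exact 95% intervals of the split of counts. Black points use all gated microglia and orange points leave out G2/M-positive cells; genes with 0 counts in a library have no orange point. All 20 black G2/M points lie below 1 (0.213 to 0.783), and the 4 broad genes span 0.739 to 1.18.

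The next measure asked where the counts of each gene lie. For each gene it gives the share of counts found in microglia with at least 3 other G2/M genes, so that no gene chose its own cells. Over the 20 G2/M genes the median share was 81.4% in the library labelled knockout and 93.2% in the library labelled wildtype. Prc1 (100% and 97.1%), Mki67 (90.6% and 95.9%) and Tpx2 (89.5% and 92.9%) had nearly all of their counts in such cells. Cenpa was the loosest, at 30.2% and 66.5%. Cenpf stood at 45.2% and 81.0%, and Cdc20 at 40.0% and 82.8%. Outside the positive cells Cenpa was at 5.72 and 5.43 CPM, Cenpf at 5.26 and 3.34, and Cdc20 at 1.86 and 1.15. Cdk1, the kinase of mitotic entry, stood at 66.7% and 68.1%, with 16 and 43 of its counts outside the positive cells.

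**Figure D3:**
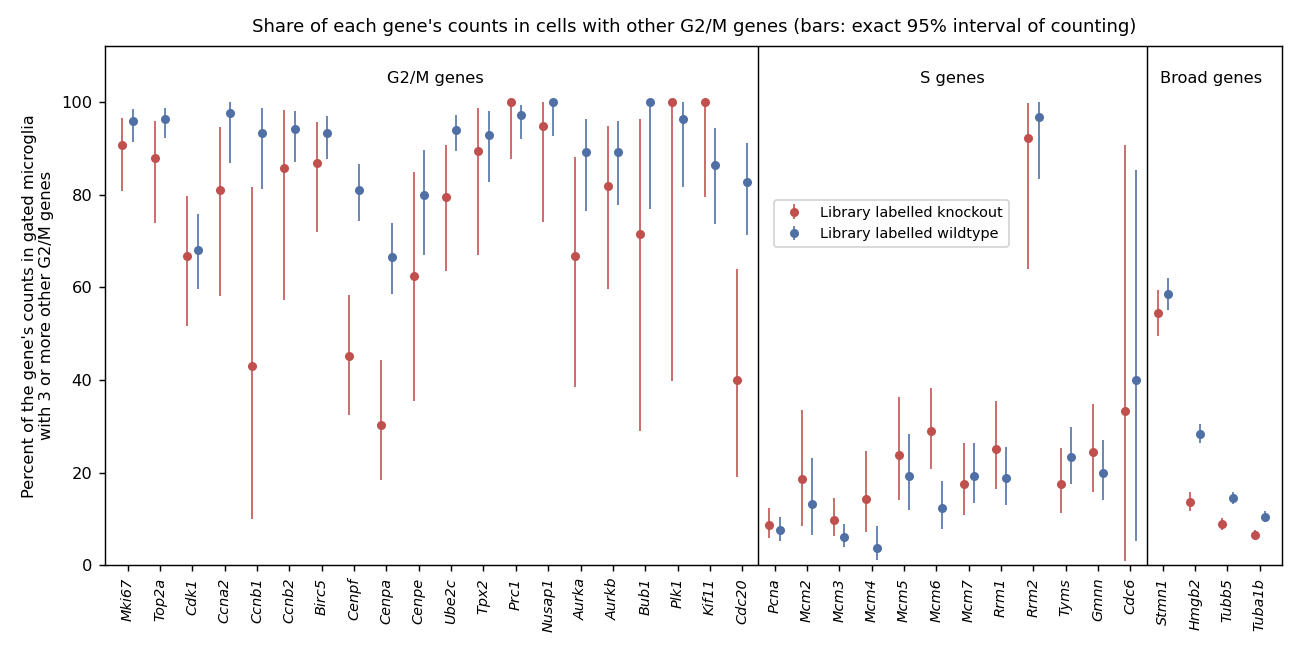
Percent of each gene's counts in gated microglia that lie in cells with 3 or more other G2/M genes, with exact 95% intervals, for the library labelled knockout (red, left of each pair) and the library labelled wildtype (blue). The G2/M genes lie high (medians 81.4% and 93.2%), the S genes low (medians 21.2% and 19.0%) except Rrm2 (92.3% and 96.8%), and Stmn1 lies between (54.4% and 58.5%).

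The S genes differed from the G2/M genes in that most of their counts lay outside the G2/M-positive cells. Their median share inside was 21.2% in the library labelled knockout and 19.0% in the library labelled wildtype. Summed over gated microglia they stood at 191.2 (180.7 to 202.0) and 211.2 (202.2 to 220.6) CPM, a ratio of 0.905 (0.843 to 0.971). Pcna, the sliding clamp of DNA polymerase, had 319 counts in 263 cells and 465 counts in 386 cells, at 48.7 and 47.6 CPM. Its ratio was 1.02 (0.884 to 1.18), and 8.78% and 7.53% of its counts lay in the G2/M cells. The exception was Rrm2, the regulated subunit of ribonucleotide reductase, with 13 counts in 5 cells and 31 counts in 14 cells. Of these, 92.3% and 96.8% lay in cells with other G2/M genes. Rrm1, the other subunit of the same enzyme, had 25% and 18.8% there.

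The 6 genes of the MCM helicase, which unwinds DNA at the fork, were spread over more cells. Mcm3 had 226 counts in 166 cells of the library labelled knockout and 412 counts in 313 cells of the library labelled wildtype, a ratio of 0.818 (0.692 to 0.964). It was the only S gene whose interval lay below 1, and 0 lay above. Mcm6 had 114 and 171 counts, a ratio of 0.994 (0.777 to 1.27). The other subunits also had intervals that included 1. Mcm2 had 43 and 75 counts (0.855, 0.574 to 1.26), and Mcm4 had 70 and 133 (0.785, 0.579 to 1.06). Mcm5 had 63 and 99 counts (0.949, 0.681 to 1.31), and Mcm7 had 102 and 156 (0.975, 0.752 to 1.26). Tyms, which makes thymidylate, had 126 and 193 counts, a ratio of 0.974 (0.772 to 1.22). Gmnn, the inhibitor that blocks a repeat of replication, had 86 and 160 counts, a ratio of 0.802 (0.609 to 1.05). Rrm1 had 88 and 165 counts, a ratio of 0.795 (0.607 to 1.04). Cdc6, a loader of the helicase, had 3 and 5 counts and could not be placed.

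At least 1 S gene was detected in 41.6% of microglia of the library labelled knockout and in 41.8% of microglia of the library labelled wildtype. In retinal neurons and glia the shares were 38.2% and 31.1%. At 1000 UMIs per cell the microglia stood at 14.7% and 15.1%, and the neurons and glia at 11.1% and 7.04%. A UMI of an S gene in a microglia was therefore not read as a sign of replication by itself.

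Inside the G2/M-positive microglia the lists went opposite ways between the libraries. The S genes stood at 2377.6 (2068.3 to 2720.1) CPM in the library labelled knockout and 1485.7 (1318.2 to 1668.6) in the library labelled wildtype, a ratio of 1.60 (1.33 to 1.92). The G2/M genes stood at 4486.1 and 8132.2, a ratio of 0.552 (0.493 to 0.616). The cells were chosen by these same G2/M genes, so the G2/M ratio inside them is a description only. Of the S genes, Mcm6, Mcm4, Mcm3 and Pcna had intervals above 1 there, and without the 1 cell described next that held for Mcm6 only. Mcm6 had 33 counts in 10 of 14 cells against 21 counts in 11 of 28 cells, a ratio of 3.38 (1.90 to 6.15). Mcm4 had 10 and 5 counts (4.30, 1.34 to 16), Mcm3 22 and 25 counts (1.89, 1.02 to 3.50), and Pcna 28 and 35 counts (1.72, 1.01 to 2.91). One positive cell of the library labelled knockout, with 20748 UMIs, held 52 of the 212 S counts. It also held 34 UMIs of lymphocyte markers and all 53 Igkc counts of the positive cells, beside 91 UMIs of microglia markers. Without that cell the ratios were 1.57 (1.29 to 1.92) for S genes and 0.696 (0.621 to 0.778) for G2/M genes. For single genes they were 2.94 (1.54 to 5.61) for Mcm6, 3.36 (0.856 to 13.9) for Mcm4, 1.57 (0.755 to 3.14) for Mcm3 and 1.44 (0.769 to 2.62) for Pcna. Whether it was a doublet was not tested, and no doublet caller was run. Another positive cell of the library labelled knockout, with 16676 UMIs, held 51 of the 212 S counts and 130 of the 400 G2/M counts. The ratios were not taken without that other cell. Median depths of the positive cells were 3733 and 7450.5 UMIs, and the part of depth in these ratios was not tested.

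Taking 2 genes as positive for a list, 15 microglia of the library labelled knockout were positive for both lists, 188 for S genes alone, 5 for G2/M genes alone and 1254 for neither. In the library labelled wildtype the numbers were 31, 287, 17 and 2029. Of the cells with G2/M genes, 75.0% and 64.6% thus also had S genes. Of the cells with S genes, 7.39% and 9.75% also had G2/M genes. Among microglia with fewer than 2 G2/M genes, 13% and 12.4% had at least 2 S genes. Median UMIs were 6708 and 7699 in cells positive for both lists, 5639 and 5073 for S genes alone, 1911 and 4316 for G2/M genes alone and 4175 and 3821 for neither. Thinned to 1000 UMIs, 45.5% and 45.8% of the cells with G2/M genes also had S genes.

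**Figure D4:**
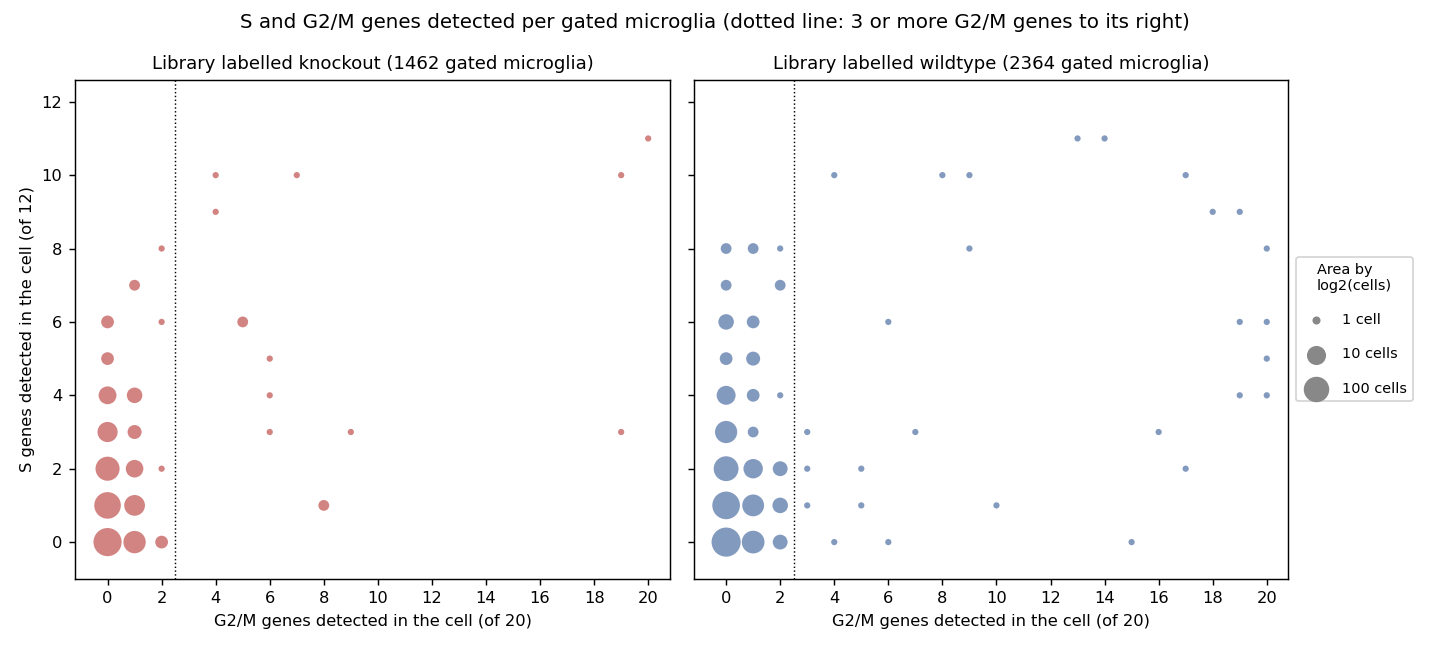
Number of S genes (vertical axis, of 12) against number of G2/M genes (horizontal axis, of 20) detected in each gated microglia, for the library labelled knockout (left) and the library labelled wildtype (right); point area grows with log2 of the number of cells. Cells with up to 8 S genes and fewer than 3 G2/M genes lie left of the dotted line in both panels, and cells with 15 or more G2/M genes number 3 on the left and 12 on the right.

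Another group of microglia had S genes without G2/M genes. Chosen after the data were seen, it took cells with at least 5 of the 12 S genes and fewer than 3 G2/M genes. It held 10 microglia of the library labelled knockout (0.684%, 0.328 to 1.25) and 25 of the library labelled wildtype (1.06%, 0.686 to 1.56). Of these, 6 and 13 had no G2/M gene at all. Their median depths were 6666 and 6333 UMIs, above the medians of all microglia. Rrm2 had 0 counts in the 10 cells and 1 count in the 25 cells.

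Of the 4 broad genes, Stmn1 had the largest share of its counts in G2/M-positive cells in both libraries. Stmn1, which destabilises microtubules, had 395 counts in 141 microglia of the library labelled knockout and 797 counts in 246 microglia of the library labelled wildtype. Its ratio was 0.739 (0.653 to 0.835), and 54.4% and 58.5% of its counts lay in G2/M cells. Hmgb2, a chromatin protein, had 1030 and 1987 counts, a ratio of 0.773 (0.716 to 0.834), with 13.7% and 28.3% in such cells. Tubb5, a beta tubulin, had 2139 and 3383 counts, a ratio of 0.943 (0.893 to 0.996). Tuba1b, an alpha tubulin, was the only gene of the 36 with an interval above 1, with 2390 and 3011 counts and a ratio of 1.18 (1.12 to 1.25). Outside the positive cells Tuba1b was at 345.4 and 281.3 CPM, a ratio of 1.23 (1.16 to 1.30).

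The other gates showed a different mix of the genes. In monocytes the G2/M counts were nearly all Cenpa, with 12 of 15 counts in the library labelled knockout and 7 of 8 in the library labelled wildtype. In lymphocytes Cenpa made up 5 of 8 and 7 of 7 G2/M counts. Hmgb2 was high in monocytes at 663 (564 to 774.5) and 699.8 (516 to 927.8) CPM, against 157.1 and 203.3 in microglia. In neutrophils it was at 1846 (1370.2 to 2433.8) and 1097.4 (806.4 to 1459.4). Stmn1 was instead high in retinal neurons and glia, at 320.8 (255.8 to 397.1) and 269.3 (215.7 to 332.1) CPM, against 60.3 and 81.5 in microglia. Tuba1b was at 465.9 and 318.8 there. None of the cells of these gates was G2/M-positive. The S genes summed to 316.9 (220.8 to 440.8) CPM in the 24 lymphocytes of the library labelled knockout and to 128.4 (51.6 to 264.7) in the 17 of the library labelled wildtype, on 35 and 7 counts. Their leading markers also differed, with Nkg7 and Cd3g in the library labelled knockout and Cd79a and Cd79b in the library labelled wildtype. In border macrophages the S genes had 21 and 11 counts, at 170 (105.2 to 259.9) and 102.3 (51.0 to 183) CPM, and the G2/M genes had 2 and 4 counts.

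**Figure D5:**
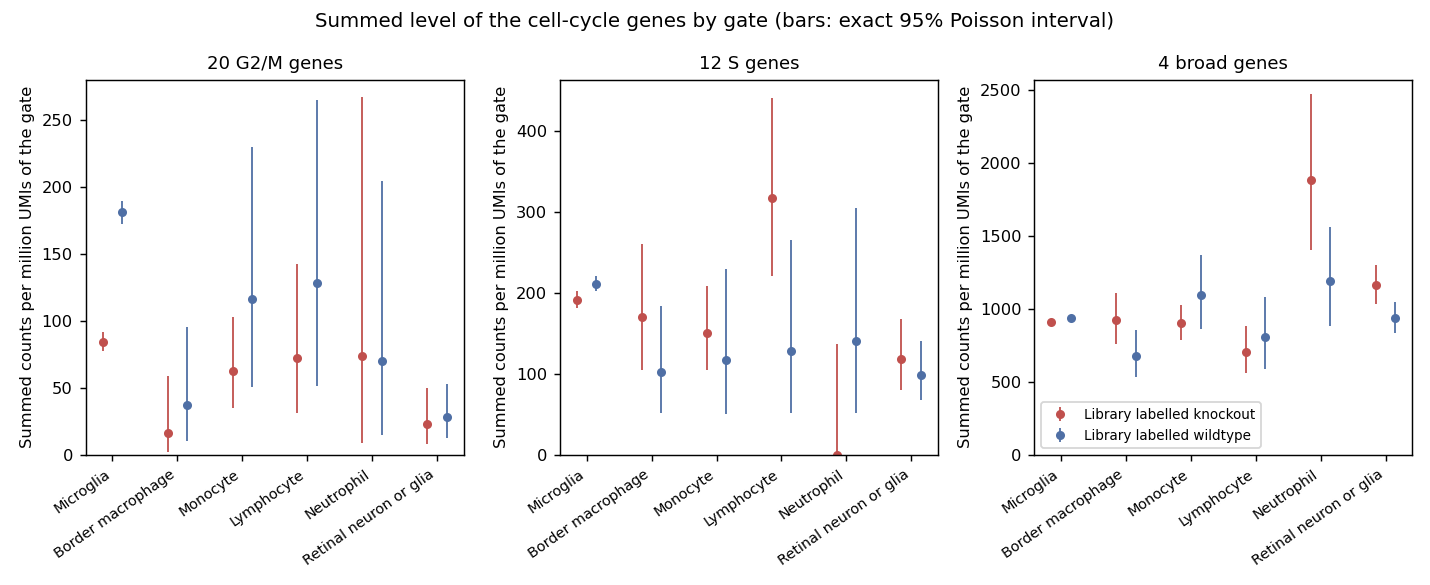
Summed CPM of the 20 G2/M genes, the 12 S genes and the 4 broad genes (panels from left to right) in each gate, with exact 95% Poisson intervals, for the library labelled knockout (red) and the library labelled wildtype (blue). The G2/M sum separates the libraries in microglia (84.4 and 181), and the intervals of the small gates are wide.

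Genes outside the 36 were then compared between G2/M-positive and remaining microglia within each library. A gene was called when it was at least 2-fold higher in the positive cells of both libraries at 100 CPM or more in those cells. Of 1467 other genes at that level, 181 (12.3%) were called. The number was 90 with the limit at 2 G2/M genes and 545 with cells thinned to 1000 UMIs. The numbers of genes tested in those settings are not given, so neither is compared with the 181. Very low counts were raised to a fixed floor in these ratios. Genes with few UMIs in the thinned positive cells could thus be called higher through the floor, and nothing is read from the 545. Of 68 other mitotic genes found in the tables, 33 reached the level and 32 were called, of 54 other replication genes 14 and 14, and of 42 histone and chromatin genes 21 and 20. In the remaining cells 0 of the mitotic, 0 of the replication and 5 of the histone and chromatin genes reached it in both libraries. Most genes of these lists thus passed the level through the positive cells, so nothing is read from their counts. With the list of G1 genes, these lists held 67 of the 181 called genes. The comparison is a description, since cells of 1 sample are not replicates.

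Many of the other mitotic genes had few or no counts outside the positive cells. Pbk, a mitotic kinase, had 20 counts in 8 of 14 positive cells of the library labelled knockout and 51 counts in 20 of 28 of the library labelled wildtype, with 0 counts in the remaining microglia of either. Against a floor of 3 counts in the remaining cells of each library, that is 483.4-fold and 849.3-fold higher. The lower limits of the exact intervals without the floor were 358.0 and 666.0. Hmmr, a spindle protein, had 20 and 76 counts in positive cells and 0 and 2 counts outside. Ube2s, a partner of Ube2c, was the most abundant of the list at 616.8 and 719.4 CPM in positive cells, against 94.7 and 105.8 outside. The 1 mitotic gene at that level that was not called was Bub3, a checkpoint protein, at 213.1 and 401.4 CPM inside and 107.2 and 96.4 outside, since its ratio was 1.99 in the library labelled knockout. Pttg1, the securin gene, was below the level, at 67.3 and 93.8 inside and 76.1 and 79.5 outside. Slbp, which binds histone messages, was the most abundant replication gene, at 325.2 and 177.2 CPM inside and 81.0 and 82.3 outside. Among the histones, H2afz, a variant of H2A, was at 2332.8 and 2830.6 CPM inside and 316 and 298.9 outside. The linker histone gene Hist1h1b was at 448.6 and 724.6 CPM inside and 0.309 and 0.209 outside. Of its 40 counts inside in the library labelled knockout, 34 came from 1 cell. It had a UMI in 4 of 14 and 16 of 28 positive cells.

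Outside the lists, the 10 genes with the highest ratios included the centromere gene Cenph, at 100.9 and 83.4 CPM inside and 0.619 and 0.730 outside. Cep55, which acts at the last step of division, was at 22.4 and 161.6 inside and 0.155 and 0.313 outside. Aspm, a protein of the spindle poles, had 1 count in 1 positive cell and 29 counts in 13 positive cells. The others were Lockd, Neil3, Mxd3, Shcbp1, Cdkn3, Zwilch and Igkc, the last from the 1 cell described above. Those with the lowest ratios included Lmo2, Lyl1, Stk10 and Neurl3. Lmo2, a cofactor of transcription in blood cells, was at 44.9 and 114.7 CPM inside and 317.8 and 344.9 outside.

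Of the inhibitors of the cycle, 3 were called higher in the positive cells. Cdkn2c and Cdkn2d encode inhibitors of the G1 kinases. Cdkn2c was at 157.0 and 260.6 CPM inside and at 7.73 and 8.66 outside, in 7 of 14 and 18 of 28 positive cells. Cdkn2d was at 168.2 and 203.3 inside and 22.1 and 22.1 outside. Cdkn1a, which encodes p21, was at 482.3 and 396.2 inside and 63.1 and 37.7 outside. These were 3 of the 5 inhibitors at 100 CPM, against 12.3% of all other genes. All 3 were below 100 CPM outside and passed the level through the positive cells, so nothing is read from their number. The 2 inhibitors at that level in the remaining cells, Btg1 and Btg2, had a ratio below 1 in both libraries. The antiproliferative genes Btg1 and Btg2 were not called, and Btg1 was at 134.6 and 245.0 inside and 483.6 and 427.2 outside. Of the genes of G1, Cdk4 was called at 168.2 and 166.8 inside and 72.7 and 77.0 outside. It too passed the level through the positive cells. Ccnd1, a G1 cyclin and the most abundant gene of that list, was not, at 168.2 and 104.3 inside and 169.7 and 177.5 outside.

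In the microglia with S genes but few G2/M genes, 25 of 1280 other genes (1.95%) were at least 2-fold higher in both libraries. Of 54 other replication genes found in the tables, 6 reached the level, and of 68 other mitotic genes 1 did. The 6 were called and the 1 was not, but none of them reached that level in the remaining cells of both libraries, so nothing is read from the counts. Lig1, the ligase that seals replicated strands, was at 134.5 and 116.9 CPM in these cells, against 8.77 and 9.56 in microglia outside both groups. Cdca7 was at 183.4 and 128.6 against 20.4 and 19.1, and it was not called in the G2/M-positive cells (33.6 and 36.5). Tipin, a fork protection protein, was at 110.1 and 163.7 against 17.1 and 23.4. Of 7 histone and chromatin genes at that level 2 were called. They were Anp32b, at 171.2 and 187.1 against 76.8 and 80.9, and Dek, at 342.4 and 374.1 against 118.9 and 122.9. Hist1h1b had 0 and 5.85 CPM in these cells.

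Most homeostatic microglia genes were lower inside the G2/M-positive cells than outside. Of 18 at 100 CPM or more in the remaining cells, 16 had a ratio below 1 in both libraries, against 630 of 1443 other genes. Of 17 homeostatic microglia genes at 100 CPM, 0 were called higher, and of the 18 in the remaining cells 2 were at least 2-fold lower in both libraries, against 32 of 1443 other genes (2.22%). P2ry12, a purine receptor and 1 of the markers of the microglia gate, was among them, at 684.1 and 828.9 CPM inside and 1655.6 and 1721.2 outside. Olfml3 was at 1738.4 and 1428.3 inside and 1428.5 and 1498.1 outside. Of 13 activation genes 1 was called higher, the filament gene Vim, against 12.3% of all other genes. Vim was at 8.97 and 11.9 CPM outside, so it passed the level through the positive cells. Of 14 activation genes at that level in the remaining cells 2 were lower, Cd63 and Apoe. Cd63, a tetraspanin of endosomes, was at 190.7 and 151.2 inside and 654.4 and 589.2 outside. Apoe, the lipid carrier of activated microglia, was at 67.3 and 46.9 inside and 4071.9 and 1641.7 outside, log2 ratios of -5.92 and -5.13. Over all kept cells the log2 ratios were -3.63 and -0.68, and with cells thinned to 1000 UMIs they were -3.41 and -3.19. Counts below 3 were raised to 3 in these ratios, which limits how low the thinned values could go. The thinned values are therefore not read as a weaker difference. A UMI of Apoe was found in 42.9% and 10.7% of the positive cells, against 40.1% and 23.5% of the cells with no G2/M gene. With the limit at 2 G2/M genes the log2 ratio of Apoe turned to 0.29 in the library labelled knockout and was -0.56 in the library labelled wildtype. In that setting, 637 of the 693 Apoe counts of the cells with exactly 2 genes came from 1 cell of the library labelled knockout, and 319 of 327 from 1 cell of the library labelled wildtype. None of the 15 immediate early and stress genes was called higher or lower. Of 5 interferon-induced genes 2 were called higher, against 12.3% of all other genes, and nothing is read from that number. Ifi27l2a was at 1715.9 and 2199.9 inside and 856.4 and 535.6 outside. Cxcl10 was at 549.5 and 1068.6 inside and 76.9 and 272.7 outside. In the library labelled knockout Cxcl10 passed the level through the positive cells, and its 49 counts there came from 2 cells. In the library labelled wildtype 128 of its 205 counts in positive cells came from 1 cell, and 53.6% of them had a UMI of it.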

How the data were processed

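Retinal CD45-sorted cells were profiled by droplet 3′ sequencing in 2 libraries, 1 per genotype. The UMI counts per gene and cell were deposited by the authors, made with Cell Ranger 3.1 on mm10, per the submitters' processing notes. Cells with at least 500 UMIs and 250 genes and at most 15% mitochondrial UMIs were used. No doublet caller was run, so doublets may remain. Gates needed 3 UMIs from 2 markers of a class and 2 times those of every other class. Levels are CPM of the summed counts of a gate, with exact Poisson, Clopper-Pearson or split-of-counts intervals at 95% confidence. Shares of 0 in the small gates are given with the upper limit of the exact interval. Cells were thinned to 1000 UMIs with a fixed seed. With 1 library per genotype there is no replicate, so no test was made and no p-value is given.

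The members and lists were chosen with earlier results of these data known. Named genes were all 36 members, and from each list the 2 highest and the 2 lowest ratios of G2/M-positive over remaining microglia, and the most abundant gene. Outside the lists they were the 10 highest and the 5 lowest. From these, the genes that bear on the members are printed, and called genes outside the rule (among them P2ry12, Cdk4, Cdkn2d, Cdkn1a, H2afz, Lig1 and Tipin) were chosen after their values were seen. Scripts were tested on simulated data. Python 3.11.15, numpy 2.4.6, pandas 2.3.3, scipy 1.17.1 and matplotlib 3.10.9 were used. Alternatives covered the cell filter, the gates, the thresholds, weighting, thinning and left-out cells, and 5 were added after seeing the data. A few named genes are not reported here.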

Additional observations from a re-analysis of the deposited data

How the results depend on the processing

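The number of libraries, depth and the few G2/M-positive cells limit the G2/M results. Of the values for lists under alternatives, 498 moved by less than their counting interval or by less than 1.5 times, and the others moved by more. Of 36 log2 ratios of lists under alternatives, 4 lay on the other side of 0 from the reported value, 1 for G2/M and 3 for broad genes, all given below. Of 451 log2 ratios of single genes, 31 did, some on few counts. Over up to 11 alternatives that kept the G2/M-positive cells, 15 of 20 G2/M genes, 3 of 12 S genes and 2 of 4 broad genes stayed below 0. The other G2/M genes reached log2 0.43 (Ccna2), 0.50 (Prc1), 0.28 (Nusap1), 0.11 (Aurka) and 0.15 (Bub1). No paired analysis was possible because there was 1 library per genotype. Values below are given for the library labelled knockout and then for the library labelled wildtype, and the cause of each change was not tested unless the setting itself removes the cells named.

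Without the G2/M-positive cells, microglia levels were 23.7 and 21.8 CPM for G2/M, 161 and 185.7 for S and 812.5 and 766.2 for broad genes. The summed log2 ratio was then 0.12 for G2/M and 0.08 for broad genes. Some genes reported at least 1.5-fold lower with an interval below 1 turned positive. They were at log2 0.57 (Mki67, Aurka and Aurkb), 0.30 (Top2a), 0.98 (Ccnb1), 0.08 (Birc5 and Cenpa), 0.66 (Cenpf), 0.40 (Ube2c) and 0.69 (Cdc20). Others whose interval had included 1 also turned. Among them, Ccna2 reached a ratio of 5.93 (0.587 to 292) on 4 and 1 counts, and Rrm2 reached 1.48 on 1 and 1.

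Thinned to 1000 UMIs, G2/M levels in microglia were 71.4 and 111.9 CPM, with S genes at 195.1 and broad genes at 842.6 in the library labelled wildtype. The log2 ratios were -0.65 for G2/M and 0.08 for broad genes, and Prc1 (0.50) and Aurka (0.11) turned positive. In border macrophages S genes were at 590.9 and 185.2 CPM, and G2/M genes at 0 in the library labelled wildtype. Median shares of counts in G2/M cells were 4.5% and 7.14% for S and 6.24% and 12.5% for broad genes. Of cells with G2/M genes 45.5% and 45.8% had S genes, and 17.2% and 20.4% of cells with S genes had G2/M genes. Other genes called higher numbered 545, and nothing is read from that number because very low counts were raised to a fixed floor.

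With equal weight per cell, microglia levels were 72.6 and 101.2 CPM for G2/M, 177.3 and 194.8 for S and 883 and 860.7 for broad genes. The log2 ratios were -0.48 for G2/M and 0.04 for broad genes, and S genes of border macrophages were at 270.5 CPM in the library labelled knockout. Without cells over 3 times the median UMI count, G2/M levels were 64.6 and 141.6, broad levels 869.7 and 905.5, and the S level 175.3 in the library labelled knockout. The S log2 ratio was then -0.26 and the median S share 13.9% in the library labelled knockout. In that setting 1 broad gene was called lower, and the share over all genes was not taken. Without the cell with the most member counts, G2/M levels were 64.7 and 155.9 CPM and the log2 ratio was -1.27.

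At 2 G2/M genes, 2.03% of microglia of the library labelled wildtype were positive, 90 other genes were called, with 17 mitotic and 9 replication genes, and Apoe turned to log2 0.29 in the library labelled knockout. At 15 genes, a limit chosen after seeing the data, the shares were 0.205% and 0.508%. Median shares of counts were then 7.4% and 3.86% for S genes and 5.83% for broad genes in the library labelled knockout, with 8 replication genes called. With 3 genes for co-detection, 17.1% and 15.4% of cells with S genes had G2/M genes.

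A minimum of 10 CPM, which 8 G2/M genes reached in the library labelled wildtype only, called those 8 lower. With no minimum 18 of 20 G2/M genes and 1 of 12 S genes were called lower. The share over all genes was not taken in that setting. With at least 20 counts over both libraries it was 5.06% lower of 11476 genes. The G2/M genes share the same few cells, so nothing is read from their number. At 50 CPM in positive cells 351 other genes were called, with 32 replication genes, and a ratio of 3 called 107. With gates at 3 times the next class, S genes of border macrophages were at 283.3 CPM in the library labelled knockout. Without that factor, border macrophages of the library labelled wildtype had 215 CPM of G2/M and 190.6 of S genes. Over all kept cells, the library labelled wildtype had 172.2 CPM of G2/M genes.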
